A study of Mus musculus with 40 samples.

Results

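The cytosolic ribosome translates nearly all of a cell's messenger RNA, and its protein components are encoded by one of the most highly transcribed gene families of the liver. The genes described here were the protein-coding autosomal genes of the mm10 build with a symbol of the form Rpl or Rps, a number and at most a final a or l, and 72 of 20807 protein-coding autosomal genes met this rule. Of these, 43 encode proteins of the large subunit (Rpl) and 29 encode proteins of the small subunit (Rps), and 13 of the 72 lay on chromosome 7. The rule used names only and no measurement.

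The study mapped transcription factors, cofactors and histone marks in mouse liver by chromatin immunoprecipitation followed by sequencing (ChIP-seq), in 40 samples of 18 groups. The 3 peak lists used here were for the corepressors SMRT and NCoR and for the histone deacetylase HDAC3. Each list came from 3 libraries of male C57BL/6 livers taken with free access to chow. These animals were Bcl6 fl/fl, that is, they carried Bcl6 alleles flanked by loxP sites and no Cre, and the labels call them wild type. Their age and the sequencing depth were not given in the sources used here, and the other 31 samples were not analysed here. The lists held 10654 SMRT, 35138 NCoR and 14462 HDAC3 peaks as positions, with no height and no value per replicate. No comparison below therefore has an error between animals, no test between groups was possible, and the intervals in parentheses are exact (Clopper-Pearson) 95% binomial intervals for counting only. Whole liver holds several cell types, and the lists do not tell in which of them a site was bound. Within 10 kb of their starts, 6 of 6 hepatocyte genes (Alb, Apoa1, Apob, Ttr, Cps1 and Cyp7a1) had 2 to 3 NCoR peaks each. At least 1 NCoR peak lay that near to 40.5% of all genes outside the family. Of the hepatocyte genes, all but Alb had SMRT peaks, and only Cps1 and Cyp7a1 had HDAC3 peaks. Among 3 leukocyte genes (Ptprc, Cd79a and Cd3e), only Cd79a had a peak, 1 for NCoR, and none was found at the muscle genes Myh6 and Myod1 or at the neuronal gene Neurod1.

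NCoR and SMRT are related scaffold proteins that bring HDAC3 to DNA-bound factors such as unliganded nuclear receptors and BCL6, and HDAC3 removes acetyl groups from histones. Ribosomal protein genes are kept at matched levels so that subunits can be assembled in equal amounts. Their promoters are usually rich in CpG dinucleotides, and transcription typically begins at a cytosine within a run of pyrimidines (C and T). That run becomes the terminal oligopyrimidine (TOP) tract of the transcript, through which translation of these messengers responds to nutrients. Many of the genes also carry small nucleolar RNA (snoRNA) genes in their introns.

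Sequences at 5 of these genes show 4 promoters, with and without peaks, and 1 bound interval upstream of a gene. They were read from the GRCm38 assembly in RefSeq, which mm10 names, on the strand of the gene and 5′ to 3′. The first 4 run from 250 bases before to 50 bases from the transcription start site (TSS) on, so that the TSS follows base 250. Capitals mark a run of at least 7 pyrimidines that touches the TSS region, or a match to a searched motif. Rpl27 (chr11:101442048-101442347, plus strand) had the NCoR centre closest to its TSS, 13 bp upstream, and its capitals are the pyrimidine run. Rps12 (chr10:23787226-23787525, minus strand) had the next closest, 38 bp upstream, again with the pyrimidine run in capitals. Rpl41 (chr10:128549256-128549555, minus strand) had NCoR and HDAC3 peaks with centres downstream of the printed bases. Its capitals are a FOX match (TGTTTAC), which lies outside both peak intervals. Rpl10a (chr17:28328221-28328520, plus strand) is the first by symbol of the genes with no peak. Its capitals are, in order, an SP/KLF match (GGGCGG), matches to the NFY motif (CCAAT) and the pyrimidine run. The last line is the NCoR peak interval upstream of Rpl36 (chr17:56612569-56612797, plus strand), the only site with all 3 lists within 1000 bp of a ribosomal protein TSS, with HNF6/CUX2 matches in capitals.
Rpl27: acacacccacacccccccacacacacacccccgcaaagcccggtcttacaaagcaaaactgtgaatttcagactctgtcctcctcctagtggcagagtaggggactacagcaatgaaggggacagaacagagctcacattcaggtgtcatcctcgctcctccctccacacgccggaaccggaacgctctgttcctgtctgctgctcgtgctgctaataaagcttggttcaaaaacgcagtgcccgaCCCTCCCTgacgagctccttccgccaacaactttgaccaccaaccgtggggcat
Rps12: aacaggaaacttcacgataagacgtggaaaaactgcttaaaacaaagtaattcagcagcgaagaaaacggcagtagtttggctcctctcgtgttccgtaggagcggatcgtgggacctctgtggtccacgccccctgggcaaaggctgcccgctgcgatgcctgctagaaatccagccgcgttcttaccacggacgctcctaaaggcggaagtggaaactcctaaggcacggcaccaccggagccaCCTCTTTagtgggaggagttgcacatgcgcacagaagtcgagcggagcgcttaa
Rpl41: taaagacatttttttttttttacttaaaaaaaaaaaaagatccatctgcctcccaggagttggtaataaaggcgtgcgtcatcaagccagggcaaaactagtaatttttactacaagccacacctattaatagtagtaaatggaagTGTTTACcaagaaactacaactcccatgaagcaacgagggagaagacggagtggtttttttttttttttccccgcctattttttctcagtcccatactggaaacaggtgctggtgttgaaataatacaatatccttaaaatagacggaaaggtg
Rpl10a: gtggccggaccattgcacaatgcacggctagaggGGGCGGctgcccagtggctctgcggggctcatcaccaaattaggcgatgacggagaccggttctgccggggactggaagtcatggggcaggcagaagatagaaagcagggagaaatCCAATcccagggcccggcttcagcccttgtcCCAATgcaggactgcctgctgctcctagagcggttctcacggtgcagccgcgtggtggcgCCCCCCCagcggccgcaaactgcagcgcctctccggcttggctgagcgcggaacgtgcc
Rpl36 NCoR peak: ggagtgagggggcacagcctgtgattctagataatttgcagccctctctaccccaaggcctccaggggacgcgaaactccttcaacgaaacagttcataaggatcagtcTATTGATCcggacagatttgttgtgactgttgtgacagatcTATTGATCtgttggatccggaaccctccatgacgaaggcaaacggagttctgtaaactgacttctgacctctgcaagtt

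To ask how often the corepressor complex sat at ribosomal protein promoters, peaks were counted with their centre within 1000 bp of the TSS. NCoR peaks lay at 15 of 72 promoters (20.8%, 12.2 to 32.0), beside 19.9% of the 20735 other protein-coding promoters. HDAC3 peaks lay at 4 (5.56%, 1.53 to 13.6), beside 6.53% of the others. SMRT peaks lay at 2 (2.78%, 0.338 to 9.68), beside 3.45% of the others. At least 1 list had a peak at 16 promoters (22.2%), beside 20.5% of the others, and 56 had none. All 4 shares were close to their background, and each background lay inside the interval of the ribosomal protein share. As a family, ribosomal protein promoters thus held peaks of these cofactors about as often as promoters at large, and most of them held none.

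The 16 promoters fell into 4 classes by the lists present. NCoR was the only list at 11 (15.3%, beside 13.3% of other promoters), namely Rpl7, Rpl13a, Rpl14, Rpl15, Rpl24, Rpl27, Rpl29, Rpl30, Rps12, Rps27 and Rps27l. NCoR and HDAC3 without SMRT were found at 3 (4.17%, beside 3.24%), namely Rpl9, Rpl41 and Rps14. All 3 lists were found only at Rpl36 (1.39%, beside 2.82%). SMRT was the only list at 1 promoter (1.39%, beside 0.0772%, which is 16 of the other promoters). A peak of NCoR alone was thus the most frequent state of a ribosomal protein promoter that had any peak, at 11 of 16 (68.8%), as it was among the other promoters (65.1%). No ribosomal protein promoter held more than 1 peak of the same list. For NCoR this was 0 of 15 promoters with at least 2 peaks, beside 309 of 4135 other promoters with NCoR (7.47%). With 15 promoters, this count does not set the family apart.

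**Figure D1:**
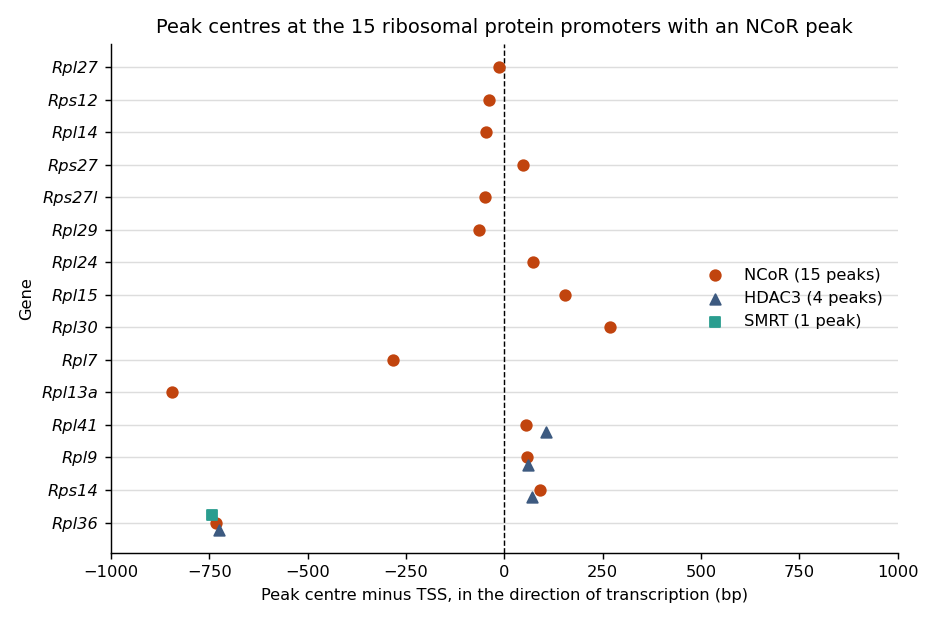
Peak centres (points, coloured by list) at the 15 ribosomal protein promoters with an NCoR peak, one gene per row, plotted as the signed distance from the TSS in bp, with negative values upstream. The NCoR points of 10 genes sit within 100 bp of the dashed TSS line, and the 3 points of Rpl36 sit together more than 700 bp upstream.

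Rpl36, which encodes a large subunit protein, was the only gene of the family with all 3 lists within 1000 bp of its TSS. Its NCoR peak (chr17:56612569-56612797) was centred 733 bp upstream of the TSS, its SMRT peak (chr17:56612568-56612780) 742 bp upstream and its HDAC3 peak (chr17:56612584-56612796) 726 bp upstream. The 3 centres lay within 16 bp of each other, in sequence before the gene, and not at the TSS itself. The bound interval printed above held 2 matches to the HNF6/CUX2 motif, at its bases 110 and 151. This motif, bound by liver-enriched factors of the ONECUT and CUX families, was searched as TATTGATT, TATTGATC, TATCGATT or TATCGATC on either strand, and it was added after the Rpl36 interval had been seen. In the 200 bp around NCoR centres, Rpl36 was the only 1 of the 15 with a match (6.67%), beside 60 of 4021 NCoR peaks at other promoters (1.49%), a count that the choice of the motif fixed. In the 300 bases at the TSS, the motif was found in 0 of 72 ribosomal protein promoters, beside 1.20% of other promoters.

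At Rpl41, Rpl9 and Rps14, NCoR and HDAC3 shared a site just downstream of the TSS. Rpl41 encodes a very small, highly basic protein of the large subunit. Its NCoR centre (chr10:128549136-128549364) lay 55 bp and its HDAC3 centre (chr10:128549094-128549306) 105 bp downstream of the TSS, in an untranslated exon. At Rpl9 (large subunit) the NCoR peak (chr5:65391273-65391501) was centred at 57 bp and the HDAC3 peak (chr5:65391279-65391491) at 59 bp downstream, a difference of 2 bp. Lias, which encodes lipoic acid synthetase, starts 53 bp from Rpl9, so the site cannot be given to either gene from its position alone. Rps14, a small subunit gene, had NCoR (chr18:60747074-60747302) at 90 bp and HDAC3 (chr18:60747063-60747275) at 71 bp downstream. The 3 genes are alike in having both centres from 55 to 105 bp downstream of the start of the gene record, used here as TSS. From the closest annotated transcript start, the NCoR and HDAC3 centres lay 55 and 38 bp away at Rpl41. The same distances were 7 and 5 bp at Rpl9 and 39 and 20 bp at Rps14, so the placement depends on the start used. The nearest SMRT centres were 46672, 23280 and 15942 bp from the NCoR centres of Rpl41, Rpl9 and Rps14. All 4 HDAC3 peaks at ribosomal protein promoters had an NCoR peak within 200 bp, as did 1173 of the 1300 HDAC3 peaks at other promoters (90.2%).

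The 11 promoters with NCoR alone included 5 with the centre closest to the TSS. They were Rpl27 (chr11:101442171-101442399, 13 bp upstream), Rps12 (chr10:23787199-23787427, 38 bp upstream), Rpl14 (chr9:120571284-120571512, 46 bp upstream), Rps27 (chr3:90213489-90213717, 48 bp downstream) and Rps27l (chr9:66945923-66946151, 49 bp upstream). At Rpl27, Rps12, Rpl14 and Rps27l the centre lay just before the gene. At Rps27 it lay in an intron, and Rab13, a small GTPase gene, starts 44 bp away. Rps27l is a paralog of Rps27 and known as a p53 target, and it was the only one of the 4 paralogs with a final l to hold a peak. The other 3, Rpl3l, Rpl10l and Rpl39l, which are known for expression in muscle or testis, had none. The nearest NCoR centre was -215082 bp from Rpl10l and 157910 bp from Rpl39l, farther than for any other of the 72 genes except Rps24.

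The remaining 6 NCoR-alone sites were more spread. Rpl29 had its centre 65 bp upstream and Rpl24 had it 74 bp downstream. Rpl7 had it 283 bp upstream, and Rpl13a, whose product also takes part in inflammatory translation control, had it 846 bp upstream. At Rpl15 the centre lay 154 bp downstream of the start of the gene record but 101 bp from the start of the neighbouring gene Nkiras1. It was the only 1 of the 15 NCoR peaks that lay nearer to another gene's annotated transcript start. At Rpl30 the centre lay 269 bp downstream of the first start and 149 bp from the closest annotated one.

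Over all 15 peaks, position separated the NCoR peaks of ribosomal protein promoters from those at other promoters more than their number did. The centre lay within 100 bp of the TSS for 10 of 15 peaks (66.7%, 38.4 to 88.2), beside 1285 of 4021 peaks at other promoters (32.0%, 30.5 to 33.4). The median distance was 65 bp, beside 175 bp. CpG-rich promoters were those with a GC content of at least 50% and a CpG ratio (observed over expected) of at least 0.6. At CpG-rich promoters outside the family the share was 32.5% and the median 166 bp. At those of the family it was 6 of 11 (54.5%, 23.4 to 83.3), with a median of 65 bp. That interval holds 32.5%, so a difference in this share among CpG-rich promoters was not resolved. All 4 peaks at the family's remaining promoters lay within 100 bp, beside 29.6% at other promoters that were not CpG-rich. The sites lay on both sides of the TSS, with 8 of 15 upstream (53.3%, beside 50.1%), and their range was from -846 to 269 bp. Within 250 bp the shares were closer, 11 of 15 (73.3%) beside 58.9%. Counting the distance to any annotated transcript start gave 11 of 17 peaks within 100 bp (64.7%), 28.4 percentage points above the other promoters. The 10 close sites were those of Rpl9, Rpl14, Rpl24, Rpl27, Rpl29, Rpl41, Rps12, Rps14, Rps27 and Rps27l. All 4 small subunit sites were among them, as were 6 of the 11 large subunit sites. With 15 peaks, the interval of the share is wide.

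**Figure D2:**
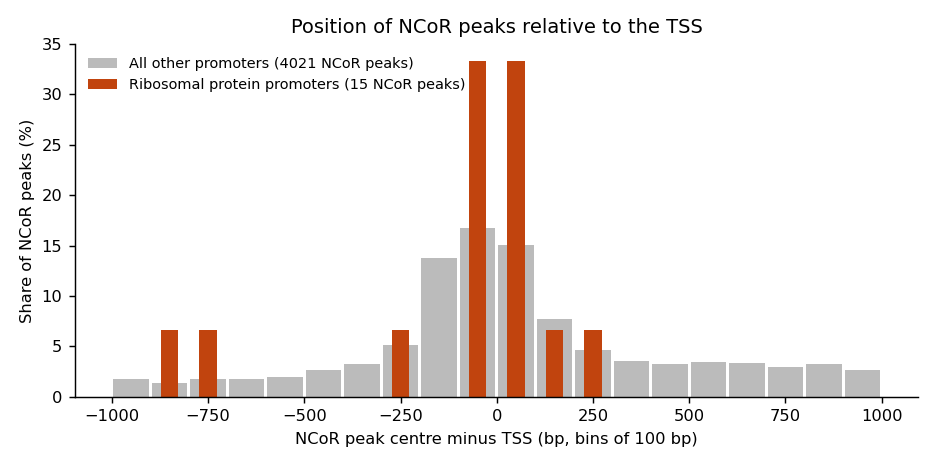
Share of NCoR peak centres (y axis, percent of the peaks of each set) in bins of 100 bp around the TSS (x axis, bp), for 15 peaks at ribosomal protein promoters (narrow bars) and 4021 peaks at all other promoters (wide grey bars). The bins on either side of the TSS hold 5 ribosomal protein peaks each, and no other bin holds more than 1.

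Partners at these sites were much as elsewhere. Of the 15 NCoR peaks, 11 had neither SMRT nor HDAC3 within 200 bp (73.3%, 44.9 to 92.2), beside 68.2% of the NCoR peaks at other promoters. HDAC3 alone was in reach of 3 (20.0%, beside 15.6%) and both partners of 1 (6.67%, beside 13.6%). SMRT without HDAC3 was in reach of 0 of 15, which allows a share of up to 21.8%, beside 2.64%. NCoR peaks at other CpG-rich promoters had neither partner in 73.2% of cases, nearly the same share as at ribosomal protein promoters.

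No peak of any list was found at 56 promoters. Of the large subunit these included Rpl10a, Rpl10l, Rpl11, Rpl12, Rpl13, Rpl17, Rpl18, Rpl19, Rpl21, Rpl22, Rpl23, Rpl23a, Rpl26, Rpl27a, Rpl28, Rpl3, Rpl31, Rpl32, Rpl34, Rpl35, Rpl35a, Rpl37, Rpl37a, Rpl38, Rpl39l, Rpl3l, Rpl4, Rpl5, Rpl6, Rpl7a and Rpl8. Of the small subunit they included Rps10, Rps13, Rps15, Rps15a, Rps16, Rps18, Rps19, Rps2, Rps20, Rps21, Rps23, Rps24, Rps25, Rps26, Rps27a, Rps28, Rps29, Rps3, Rps6, Rps7 and Rps9. The list includes genes known for roles beyond translation, such as Rpl5 and Rpl11, whose products bind the p53 regulator MDM2, and Rps6, whose product is phosphorylated downstream of mTOR. An absent peak means only that no site passed the authors' thresholds in that window. With windows at any annotated transcript start, Rpl18 and Rps10 held an NCoR peak. At Rpl3, Rps2 and Rps24 the first such start lay 8462, 1947 and 3556 bp downstream of the TSS used, outside the window. No peak was found within 1000 bp of their annotated transcript starts either.

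Many of the genes without a promoter peak had an NCoR site further away. For 9 of the first 10 by symbol, the signed distance from the TSS to the nearest NCoR centre was -4226 bp for Rpl10a, -215082 bp for Rpl10l, 18869 bp for Rpl11, -32232 bp for Rpl12 and -36973 bp for Rpl13. It was 5745 bp for Rpl17, 2585 bp for Rpl18, -10327 bp for Rpl19 and 10472 bp for Rpl21. The sites closest to the edge of the window were those of Rpl13a (-846 bp) just inside it, and Rps10 (1301 bp), Rpl27a (1450 bp) and Rps27a (-1611 bp) just outside it. Distances from 1 to 5 kb were found for 15 of 72 genes (20.8%), beside 12.3% of other genes and 14.2% of other genes with CpG-rich promoters. Proteasome genes were at 23.4%, ribosome biogenesis genes at 15.8% and oxidative phosphorylation genes at 13.6%. Translation factor genes were at 10.8% and mitochondrial ribosomal protein genes at 8.97%. The 15 genes included Rps10, Rpl27a, Rps27a, Rps18, Rps13, Rpl18, Rpl26, Rps16, Rpl28, Rpl35a, Rps7, Rps6, Rpl10a and Rps28. At Rps16 and Rps28 all 3 lists had a centre there, at -2736 and -4460 bp for NCoR, -2713 and -4449 bp for HDAC3 and -2789 and -4448 bp for SMRT. At Rps18 and Rps13 the NCoR centre was joined by HDAC3, at 1859 beside 1815 bp and at -2369 beside -2390 bp. At Rps27a, whose product is a fusion with ubiquitin, it was joined by SMRT, at -1611 beside -1626 bp.

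Over the family, the median distance to the nearest NCoR centre was 6741 bp, beside 17962 bp for all other genes and 8397 bp for other genes with CpG-rich promoters. A centre lay within 10 kb of 40 genes (55.6%), beside 40.5% and 52.5%. Distances over 100 kb were found for 3 genes (4.17%, beside 19.8% and 8.38%). These were Rps24 at 258873 bp, Rpl10l at -215082 bp and Rpl39l at 157910 bp. The nearest HDAC3 centre lay at a median of 32.9 kb and the nearest SMRT centre at 48.6 kb, beside 58.0 and 83.3 kb for other genes and 40.1 and 61.2 kb for other genes with CpG-rich promoters. For NCoR, the median was 4169 bp for mitochondrial ribosomal protein, 4676 bp for proteasome and 6354 bp for ribosome biogenesis genes. It was 8144 bp for oxidative phosphorylation and 8902 bp for translation factor genes. In the same order, 59.0%, 63.8%, 57.9%, 54.3% and 53.8% of these genes had an NCoR centre within 10 kb. Distance in the genome does not show that a site acts on a gene. Ribosomal protein genes were short, with a median length of 3.33 kb beside 17.7 kb, and 8 of them (11.1%) had an NCoR peak in the gene outside the promoter window, beside 31.4% of other genes. These were Rpl11, Rpl18, Rpl27a, Rpl35a, Rps7, Rps10, Rps14 and Rps18. For Rpl11 the peaks lay in the gene record outside the basic transcripts.

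**Figure D3:**
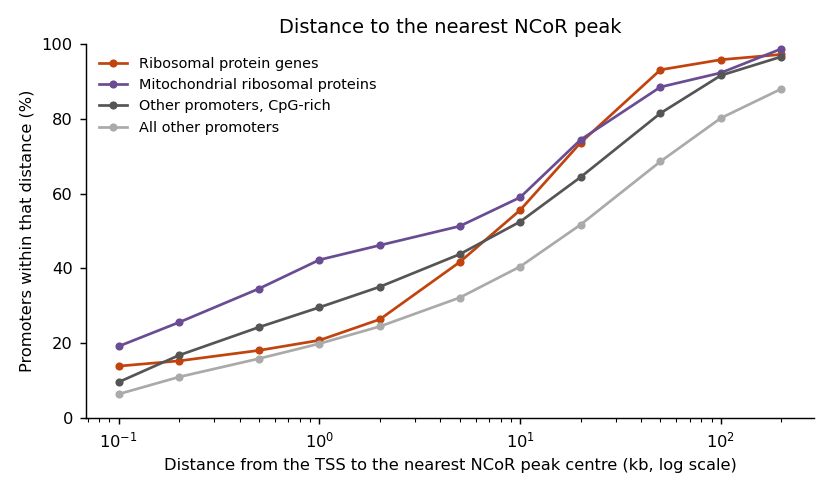
Cumulative share of promoters (y axis, percent) with an NCoR centre within a given distance of the TSS (x axis, kb, log scale), for ribosomal protein genes, mitochondrial ribosomal protein genes, other CpG-rich promoters and all other promoters. The ribosomal protein line is at 20.8% at 1 kb, close to all other promoters, and at 55.6% at 10 kb, above all other promoters (40.5%).

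Within the family, large subunit promoters held NCoR more often than small subunit promoters, at 11 of 43 (25.6%, 13.5 to 41.2) against 4 of 29 (13.8%, 3.89 to 31.7), with intervals that overlap widely. HDAC3 was at 3 and 1, and SMRT at 1 and 1. Genes with a snoRNA gene inside, 25 of 72 (34.7%, beside 1.15% of other genes), held NCoR at 3 (12.0%, 2.55 to 31.2), namely Rpl13a, Rpl30 and Rps12. Genes without one held it at 12 of 47 (25.5%, 13.9 to 40.3), and the intervals again overlap. Another protein-coding gene started within 1000 bp of 15 ribosomal protein genes (20.8%, beside 12.9%), and NCoR was found at 3 of these (20.0%) and at 12 of the other 57 (21.1%). Among other promoters the shares were 30.6% with and 18.4% without such a neighbour.

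CpG-rich promoters made up 51 of 72 (70.8%), beside 42.4% of other promoters. The share was like that of mitochondrial ribosomal protein (71.8%) and proteasome promoters (66.0%), and oxidative phosphorylation promoters were at 58.0%. In other genes, CpG-rich promoters held NCoR more often (29.6%, 28.7 to 30.6) than the rest (12.8%). In the ribosomal protein family the shares were 11 of 51 (21.6%, 11.3 to 35.3) for CpG-rich promoters and 4 of 21 (19.0%, 5.45 to 41.9) for the rest. Set beside CpG-rich promoters only, the 20.8% of all 72, of which 21 were not CpG-rich, differed by -8.79 percentage points instead of 0.891. The upper bound of the family's interval (32.0%) still lay above 29.6%, so a lower share than at CpG-rich promoters was not resolved with 72 genes.

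Other gene families of similar basic function held NCoR more often in these lists. Mitochondrial ribosomal protein genes, which encode the separate ribosome of mitochondria, held it at 33 of 78 promoters (42.3%, 31.2 to 54.0), and translation factor genes at 22 of 65 (33.8%, 22.6 to 46.6). Ribosome biogenesis genes held it at 6 of 19 (31.6%), oxidative phosphorylation genes at 24 of 81 (29.6%, 20.0 to 40.8) and proteasome genes at 13 of 47 (27.7%, 15.6 to 42.6). The cytosolic family had the lowest share of these 6 lists, but its interval overlapped those of the others, and its upper bound (32.0%) overlapped narrowly the lower bound of the mitochondrial family (31.2%). HDAC3 and SMRT shares of the mitochondrial family, 7.69% and 1.28%, were near those of the cytosolic family. Its NCoR peaks had neither partner in 87.9% of cases and lay within 100 bp of the TSS in 45.5%.

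**Figure D4:**
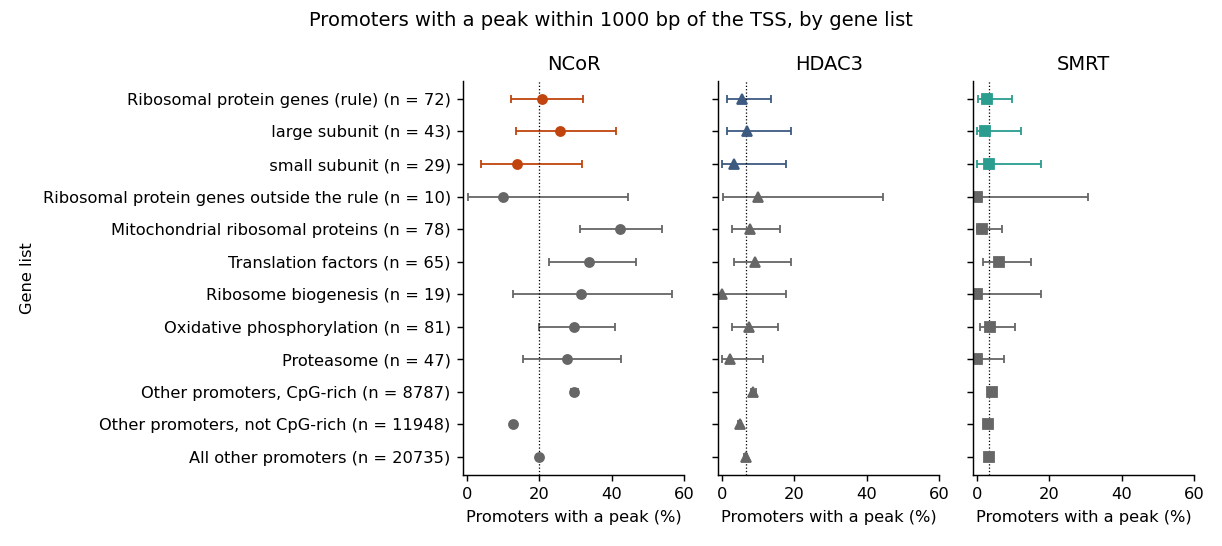
Share of promoters with a peak centre within 1000 bp of the TSS (x axes, percent) by gene list (rows, with n), for NCoR, HDAC3 and SMRT. Points are shares, bars are exact 95% binomial intervals and the dotted lines mark all other promoters. The ribosomal protein genes sit on the dotted line for each list, and the mitochondrial ribosomal proteins sit to its right for NCoR.

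Cytosolic ribosomal protein genes outside the symbol rule were too few to be compared with the family. Of 10 on autosomes, only Rps3a1 had peaks, with NCoR at 29 bp and HDAC3 at 32 bp downstream of the TSS. Both centres lay nearer to the TSS used than those of Rpl9, Rpl41 and Rps14. Those with none included Rplp0, Rplp2, Rpsa, Fau, Rpl36al, Rpl7l1 and Rpl22l1. Rplp1, a stalk protein gene, had all 3 lists just beyond the window, at -1194 bp for NCoR, -1211 bp for SMRT and -1230 bp for HDAC3. Of 4 genes on the X chromosome, Rpl10 had an NCoR peak at -75 bp and Rps4x at 16 bp, while Rpl36a and Rpl39 had none. Ribosomal protein genes also have many processed pseudogenes, copies of the transcript without the promoter, and 6 of 244 named copies (2.46%, 0.908 to 5.28) had NCoR within 1000 bp of their start, beside 1.71% of 8949 other processed pseudogenes. Reads that matched more than 1 place were not used by the authors, and how far exon sequence shared with such copies lowered the signal at these genes was not tested.

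Pyrimidine runs at the TSS, known for this family, were frequent here. A run of at least 8 pyrimidines on the coding strand touched the region within 10 bases of the TSS in 24 of 72 (33.3%), beside 14.1% of other promoters and 10.3% of mitochondrial ribosomal protein promoters. Taking the longest run over all annotated starts of a gene, the counts were 44 (61.1%), 21.7% and 16.7%. A cytosine stood at the TSS in 36.1%, beside 17.2%. Rpl32 had the longest run at its TSS, 17 bases, followed by Rpl4 and Rpl26 with 14. The run was present whether or not NCoR was there, in 6 of 15 promoters with an NCoR peak (40.0%) and in 18 of 57 without (31.6%).

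Motifs were searched on both strands of the 300 bases, and a match describes letters only. No motif holds another motif in full. ETS matches (CCGGAAG), the core bound by GABP and ELK factors, were found in 19 ribosomal protein promoters (26.4%, beside 11.0% of others). By NCoR state, this was 1 of 15 with a peak (6.67%, Rps27l) and 18 of 57 without (31.6%). In the 200 bp around the NCoR centres, however, 4 of 15 (26.7%) held the ETS letters, at Rpl15, Rpl30, Rpl41 and Rps27l, beside 10.2% at other promoters. The count by NCoR state thus depended on where the window was placed. YY1 matches (AANATGGCG) were found in 9.72%, beside 2.88%, and E-box matches (CACGTG) in 13.9%, beside 7.80%. ETS matches were also found in 34.6% of mitochondrial ribosomal protein, 31.9% of proteasome and 18.5% of oxidative phosphorylation promoters. In the same order, the shares were 14.1%, 10.6% and 3.70% for YY1 and 6.41%, 12.8% and 9.88% for the E-box. The ETS and YY1 shares were thus not particular to the cytosolic family. SP/KLF matches (GGGCGG) were found in 41.7%, beside 43.7%, and in 20.0% of ribosomal protein promoters with NCoR against 61.2% of other promoters with NCoR. The former was 3 of 15 promoters, and in the 200 bp around the NCoR centres the shares were closer, at 4 of 15 (26.7%) beside 44.2%. NFY matches (CCAAT) were found in 27.8%, beside 38.6%. The remaining motifs were NRF1 (GCGCATGC, 4.17% beside 3.45%), the TATA box (spelled TATAAA, 8.33% beside 12.7%) and CRE (TGACGTCA, 6.94% beside 2.41%). Letters of liver-enriched factors were rare in ribosomal protein and other promoters alike. FOX (TGTTTAC) was in 1.39% beside 3.07%, the HNF4 half-site (CAAAGTCCA) in 1.39% beside 0.429%, and C/EBP (TTGCGCAA) in 0 of 72 beside 0.193%. None of the 15 NCoR centres at ribosomal protein promoters had a FOX, HNF4 or C/EBP match within its 200 bp, beside 3.68%, 1.19% and 0.746% at other promoters. With 15 peaks and shares this low, the absence does not set the family apart.

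**Figure D5:**
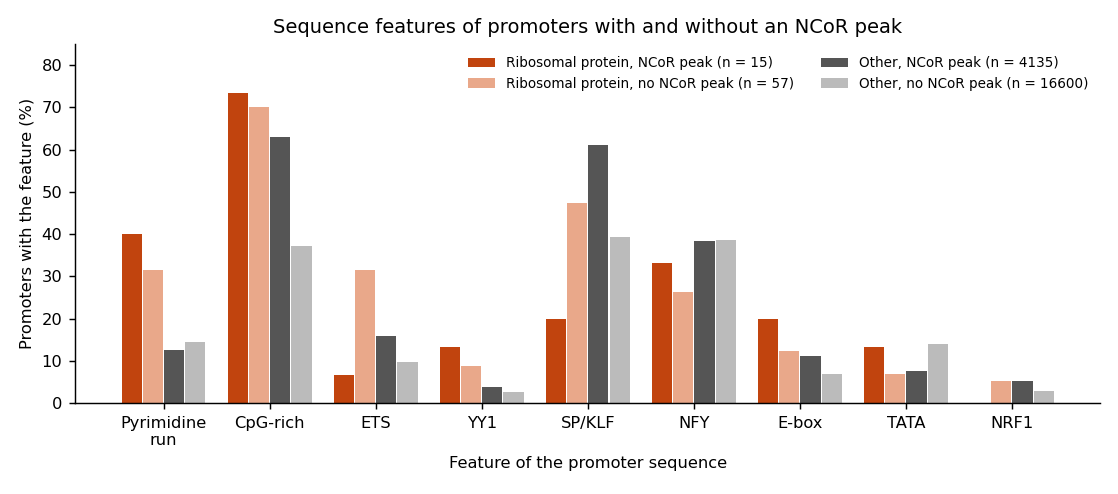
Share of promoters (y axis, percent) with a pyrimidine run of at least 8 bases at the TSS, a CpG-rich sequence or a motif match (x axis), for ribosomal protein and other promoters with and without an NCoR peak (bars, n in the legend). Pyrimidine runs are at 40.0% and 31.6% in ribosomal protein promoters with and without NCoR, and SP/KLF matches are at 20.0% in those with NCoR beside 61.2% in other promoters with NCoR.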

How the data were processed

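Peaks of SMRT, NCoR and HDAC3 in control liver were analysed. The authors aligned single-end reads to mm10 with Bowtie, keeping uniquely mapped reads and 1 read per start position, pooled the libraries of a cofactor to call peaks against input with HOMER, and kept peaks that passed fold and false discovery thresholds in DESeq2 on the individual libraries. The deposited lists hold no counts or scores: each peak is a position alone. Interval length was constant within a list, at 228 bp for NCoR and 212 bp for the other lists. The strength of a site and the depth behind it are therefore unknown.

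All peaks lay inside GRCm38 chromosomes. Starts came from GENCODE vM21 gene records (5′ end, basic set). For 8 members (11.1%) this start lies upstream of every basic transcript, by over 1000 bp for Rpl3, Rps2 and Rps24. Peaks with centres at most 200 bp apart were called partners. The comparison families were taken by symbol, and ribosome biogenesis genes from a fixed list of names. Translation factor genes were all those with a symbol starting with Eif or Eef and a number. That list can therefore hold genes named after a factor that are not factors themselves. The HNF6/CUX2 motif had 4 spelled forms. A peak in several windows was counted once, at the closest start. Counting used Python 3.11.15, SciPy 1.17.1 and NumPy 2.4.6, and was tested on simulated positions. No test was made between lists, since replicates were pooled.

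Members are named once by class, and some genes that the rule would name are not reported by name here. Given in full are classes of up to 5 members, the 5 NCoR-alone sites closest to the TSS, the 3 members with the most peaks, and 10 members without a peak, by symbol. The members and lists were chosen with earlier results of these data known.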

Additional observations from a re-analysis of the deposited data

How the results depend on the processing

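The family's NCoR share carries an interval from 12.2% to 32.0%, which limits what 72 genes can resolve, and site strength could not be weighed because the lists hold positions only. A stricter peak threshold, and leaving out a replicate, could not be run on lists of pooled positions. No paired analysis was possible because replicates were merged before the positions were set. Promoter windows of 500 and 2000 bp and of 1000 bp upstream to 100 bp downstream, any annotated start, partner distances of 100 and 400 bp, other choices of members and CpG-rich promoters as the comparison were tried. Of 104 values, 101 stayed inside the exact interval of the value given in the report and 3 did not. These intervals are wide and the settings recount largely the same genes, so this count says little about stability. The SMRT share, for example, ran from 1.39% to 4.17% and stayed inside 0.338 to 9.68 throughout. The comparison with CpG-rich promoters was read only from differences, since it cannot move the family's own shares or classes. With the window of 500 bp, Rpl36 no longer had a peak, so promoters with all 3 lists fell to 0% and NCoR peaks with both partners to 0%. Against CpG-rich promoters, the NCoR share of the whole family, CpG-rich or not, was -8.79 percentage points from the comparison instead of 0.891. With the ribosomal protein genes outside the rule added, that difference was -0.435, and without genes that have a neighbouring start the SMRT difference was 0.0605 instead of -0.670, so the sign of both small differences depends on the choice of members. The NCoR share ran from 18.1% to 26.4%. The share of NCoR centres within 100 bp of the TSS was above that of all other promoters by 26.0 to 34.7 points. That range covers only 4 values, the reported one included, and the cutoff of 100 bp was the same in each. Within 250 bp, the shares were closer, at 73.3% beside 58.9%.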
